A study of Mus musculus with 20 samples.

Results

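Hsd11b1 encodes 11-beta-hydroxysteroid dehydrogenase type 1, and its messenger RNA was followed through the conversion of 3T3-L1 cells from fibroblasts to fat-storing adipocytes. The members were defined as the probe sets with Hsd11b1 as their only gene symbol in the platform annotation, and 1 such probe set, X83202_s_at on array B, was found among 13179 probe sets on 2 array types, on which 6137 genes had a probe set of their own. The suffix _s is the maker's mark for a probe set that may also bind other transcripts. The gene was selected on its measured rise in these samples, so its own levels and fold changes are given below as a description, with no test.

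The enzyme sits in the endoplasmic reticulum and, in adipocytes and liver, mainly works as a reductase that turns inert 11-keto glucocorticoids (11-dehydrocorticosterone in the mouse, cortisone in humans) into active corticosterone or cortisol. It takes its NADPH from hexose-6-phosphate dehydrogenase, the product of H6pd, while the type 2 enzyme, Hsd11b2, inactivates glucocorticoids in mineralocorticoid target tissues. Glucocorticoid in turn acts through the receptor Nr3c1, and a synthetic glucocorticoid, dexamethasone, is a standard part of the mixture that starts adipogenesis and is active without this enzyme.

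3T3-L1 is a mouse fibroblast line that forms adipocytes after confluence and hormone treatment. Total RNA was taken from preconfluent and confluent cells before induction, then at 6, 12 and 24 hours and on days 2, 3, 4, 7 and 28 after induction by the MDI protocol, which in common use combines isobutylmethylxanthine with dexamethasone and insulin. Each time point was 1 sample on each array type, which makes 20 arrays with no replicate, and the labels name no genotype, strain, age or dose and do not say when the mixture was removed. All groups share the same line and the same induction course, and no cells kept without MDI over the same days were among the samples used here, so effects of the mixture and of time in culture cannot be told apart. The values are bulk levels, in which fewer cells of a type and less RNA per cell cannot be told apart.

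The deposited value is a linear intensity per probe set that can fall below 0. Values at or below a floor were treated as not measurable. The floor was 156 for array B and 136 for array A. The trimmed mean was between 500.87 and 501.12 on all arrays, and 7582 probe sets were bright enough to be tested. From their labels the samples fall into 4 stages. The 2 samples taken ahead of induction are called before, those of 6, 12 and 24 hours early (n = 3), those of days 2 and 3 middle (n = 2), and those of days 4, 7 and 28 late (n = 3). Changes are differences of stage means on the log2 scale with the floor in place, with limma's standard error (SE), and a call is an adjusted p under 0.05. Since a stage holds neighbouring time points, these p-values measure the spread between such samples and may hold technical differences. Adipocyte identity of the late cells was read from 14 measured adipocyte genes, all called higher in late than in before samples, where 5.82% of all probe sets tested were called higher and 5.08% lower.

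RefSeq places Hsd11b1 on the minus strand of mouse chromosome 1. Its 250 bases upstream of the transcript start held in the promoter table (GRCm38.p6, chr1:193242361-193242610, minus strand) are shown because C/EBP factors, whose levels are followed below, are known to act on this gene. The window lies inside the annotated gene, which extends 21435 bases further upstream. Capitals mark the single CCAAT match, whose first base is at -72 from that start. CCAAT is a different motif from the C/EBP core TTGCNNAA, which had no match here.
Hsd11b1 upstream window: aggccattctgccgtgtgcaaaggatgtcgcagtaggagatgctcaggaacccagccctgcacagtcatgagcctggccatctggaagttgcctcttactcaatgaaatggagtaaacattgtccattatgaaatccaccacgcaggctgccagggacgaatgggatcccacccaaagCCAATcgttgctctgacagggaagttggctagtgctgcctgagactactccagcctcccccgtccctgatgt
CCAAT was present on either strand in 33.8% of 32851 RefSeq windows of the same length. The C/EBP core TTGCNNAA, the glucocorticoid receptor hexamer AGAACA and TATAAA had no match on either strand in this window, against 9.56%, 16.1% and 12.4% of all windows. The full palindromic glucocorticoid element and the PPAR direct repeat known as DR1 had none either, and were found in 0.00913% and 0.0335% of all windows.

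Hsd11b1 went from below the floor to near the top of the array. Its intensity was -204 in preconfluent cells, -182 in confluent cells and 25 at 6 hours, all at or below the floor of 156. It was 565 at 12 hours, 1460 at 24 hours, 4550 on day 2 and 8050 on day 3. It was 12900 on day 4, 12800 on day 7 and 11900 on day 28. The 3 samples up to 6 hours were thus the lowest, each later sample up to day 4 was higher than the one before it, and the 3 late samples were the highest.

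The late level was even from day 4 to day 28. It averaged 12533 ± 551 (SD, n = 3), a coefficient of variation of 4.39%. Late minus before was 6.33 ± 0.75 (log2, SE), which is a fold of at least 80.3 because both baseline samples were at the floor. Middle minus before was 5.28 ± 0.82, at least 38.8-fold, and no fold is given for the early stage, which spans the floor: its 6-hour sample lay below it and its 12- and 24-hour samples above. Early samples differed most among themselves, with an SD of 1.62 on the log2 scale with the floor in place, against 0.58 in the middle and 0.064 in the late stage.

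**Figure D1:**
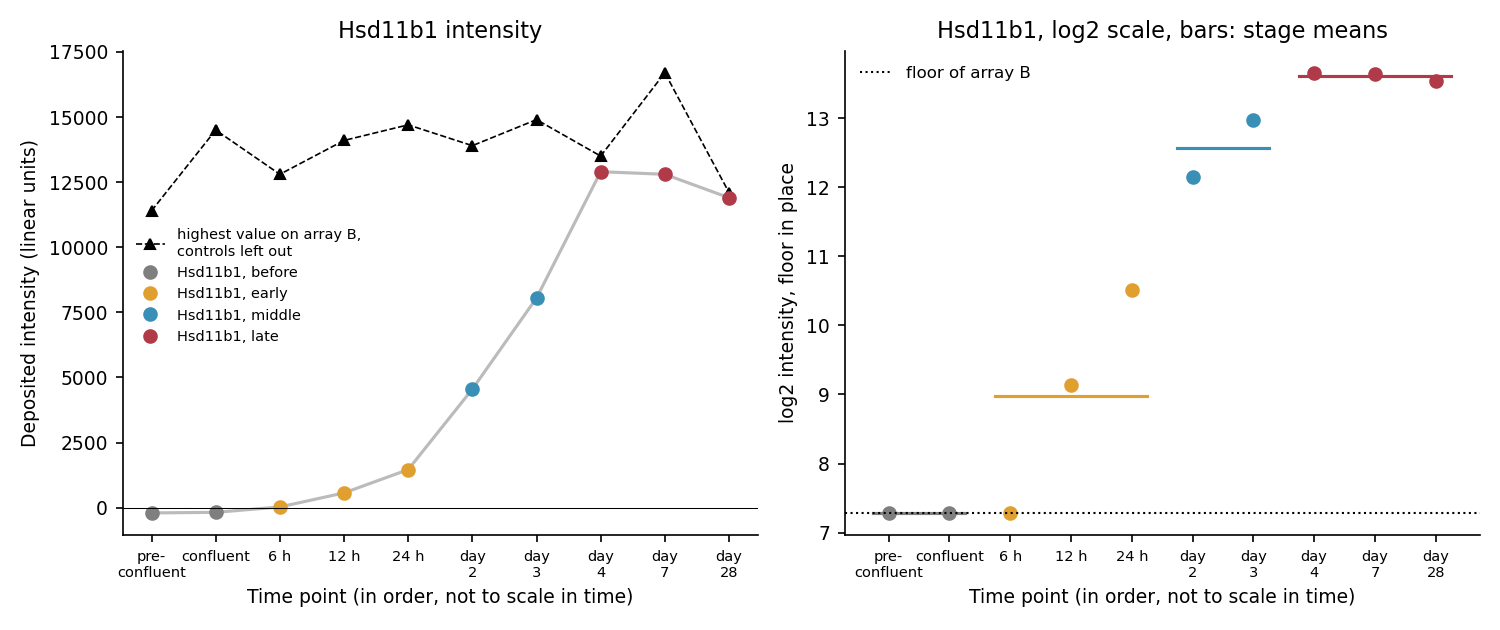
Hsd11b1 intensity at each of the 10 time points on array B, on the linear scale with the highest non-control value of the same array (left) and as log2 with the floor of 156 in place and stage means as bars (right); each point is 1 sample, coloured by stage. The gene left the floor at 12 hours and lay between 11900 and 12900 on days 4, 7 and 28, close under the array's highest values.

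The rise was spread over 5 intervals. From 6 to 12 hours it rose at least 3.62-fold, taken against the floor, an interval in which 4.81% of the 7582 probe sets rose at least 2-fold with the floor in place. It rose a further 2.58-fold to 24 hours and 3.12-fold to day 2, where 4.44% and 4.15% rose at least 2-fold. The last steps were smaller, 1.77-fold to day 3 and 1.60-fold to day 4. Days 4 and 7 differed by 1.01-fold and days 7 and 28 by 1.08-fold.

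No time point had a replicate, so the spread set beside these steps is the residual SD within stages, 0.97 on the log2 scale with 6 degrees of freedom, which includes the rise within the early stage and depends on the floor. In order of level, day 4, day 7, day 28, day 3 and day 2 each differed from the next by less than 0.97. Day 2 against 24 hours, 24 against 12 hours and 12 against 6 hours differed by more. The 3 samples at or below the floor have no order.

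The plateau lay close to the upper end of array B. Hsd11b1 was at 95.6% of the highest non-control value of its array on day 4, 76.6% on day 7 and 98.3% on day 28, and only 1 probe set was brighter on day 28, where it ranked 2. The highest values ran from 11400 to 16700 on array B and from 38800 to 55100 on array A, on which 26 to 65 probe sets lay above the top of array B at the same time point. Of 30 other genes that reached 8000 on array B and were tested on array A as well, 26 covered a smaller log2 range on array B, with a median range of 0.83 against 1.34. This check was chosen after the values were seen, and many of these probe sets are shared by gene families. Some array A partners were dim, such as Cox7c at 61 to 296 and Rps3 at 244 to 708, so the ranges of a gene were not always read at like levels. A part of the array's upper end in the even late level of Hsd11b1 was not tested.

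On the log2 scale with the floor at 156, Hsd11b1 held its rise 1 time point or more ahead of the adipocyte genes. That order was lost at a higher floor, and on the linear scale several of these genes came before Hsd11b1. Hsd11b1 passed the midpoint between its before and late means at 24 hours and stayed above it. That midpoint was 1398 as an intensity and the 24-hour sample read 1460, so the order rests on 1 sample just above it. Of 438 other probe sets called higher late than before for which this time could be read, 58 (13.2%) had passed by 24 hours, 167 passed on day 2, 104 on day 3 and 98 on day 4. None of the 14 adipocyte genes had passed for good by 24 hours: 10 did so on day 2, among them Pparg, Cebpa, Fabp4, Lpl, Lipe and Cidec, 3 on day 3 (Adipoq, Gpd1 and Cd36) and 1, the insulin-responsive glucose transporter Slc2a4, on day 4. Scd1, a desaturase and 1 of the 10, had already been above its midpoint of 6612 at 6 and 12 hours (6890 and 7590), ahead of Hsd11b1, and was below it at 24 hours (4930). With the floor at 2 times its value, Hsd11b1 passed on day 2, the same time point as 10 of the 14 adipocyte genes and ahead of the other 4, a setting tried after the values were seen. On the linear scale Hsd11b1 passed 50% of its late mean only on day 3, the day of Fabp4, Adipoq, Gpd1, Cd36 and Cidec. Pparg, Cebpa, Lpl, Lipe, Dgat1 and Fasn passed 1 time point earlier, Scd1 and Slc2a4 on day 4, and Retn could not be timed. Of 428 other probe sets called higher late that could be timed this way, 237 (55.4%) had passed by day 2.

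**Figure D2:**
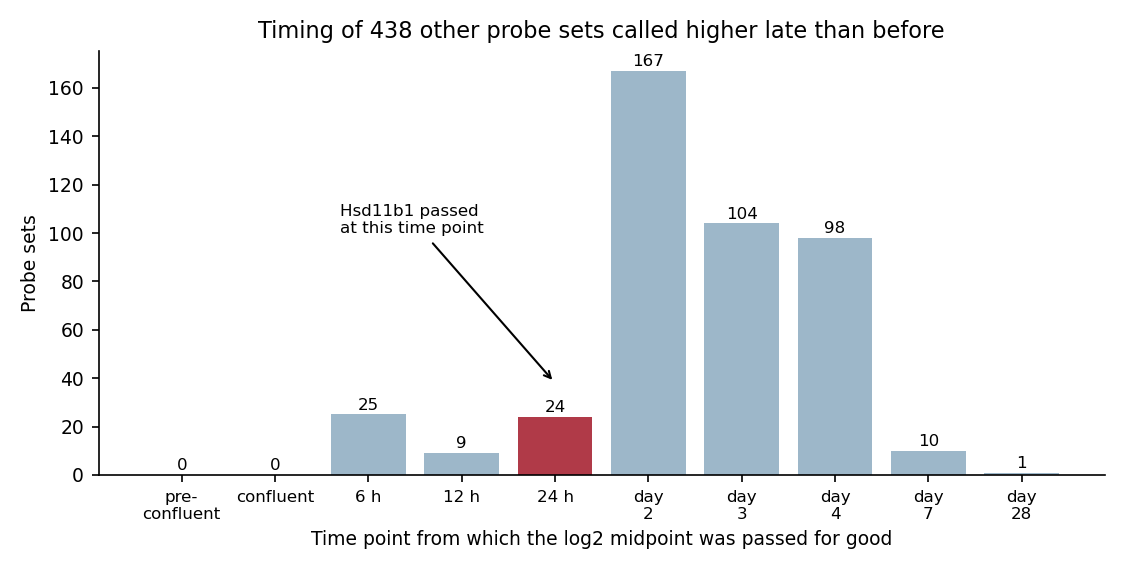
Number of probe sets, among 438 others called higher in late than in before samples, by the time point from which each stayed above its own log2 midpoint; the marked bar is the time point at which Hsd11b1 passed. The 24-hour bar holds 24 probe sets, and the largest, on day 2, holds 167.

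By the first measurable level Hsd11b1 came at 12 hours. Of 72 other probe sets called higher late that were at or below the floor in all 3 samples up to 6 hours and could be timed this way, 6 left it for good at 12 hours, as Hsd11b1 did, 8 at 24 hours and 25 on day 2. Only 1 of the 6 had a name: Hp, haptoglobin, an acute phase protein of liver and fat. Hp read 114, 84, 72, 177, 881, 993, 3290, 5040, 4080 and 7960 in the order of the time points, so at 12 hours it was just above the floor of 156, while Hsd11b1 was at 565. Pparg, the nuclear receptor that directs adipogenesis, first left the floor at 24 hours, Cebpa, Gpd1, Cd36 and Cidec on day 2, and Slc2a4 on day 3. The other adipocyte genes (Fabp4, Adipoq, Lpl, Lipe, Scd1, Retn, Dgat1 and Fasn) could not be timed this way. Each was already above the floor in a sample up to 6 hours.

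Set as shares of their own late means, Hsd11b1 stood at 4.51% at 12 hours, 11.6% at 24 hours, 36.3% on day 2 and 64.2% on day 3. Pparg stood at 1.27%, 19.9%, 66.6% and 105% in the same samples, and Cebpa at 61.0% on day 2 and 86.6% on day 3. On day 3, of the 14 adipocyte genes, only Adipoq (59.3%), Scd1 (42.8%) and Slc2a4 (19.7%) stood below Hsd11b1 by this share. Pparg read 102, 68, -38 and 17 up to 12 hours, then 267 at 24 hours, 894 on day 2, 1410 on day 3, 1640 on day 4, 1210 on day 7 and 1180 on day 28. Cebpa, the C/EBP factor of mature adipocytes, was below 0 in the 5 samples up to 24 hours and read 1050, 1490, 1700, 1990 and 1470 from day 2 on. Both factors were thus measurable no earlier than 24 hours, while Hsd11b1 was first above the floor at 12 hours. Their late readings were 1180 to 1990, and Hsd11b1 averaged 12533, so an equal share of the late level clears the floor sooner for Hsd11b1. These are therefore times of detection and give no order of onset. Fabp4, the fatty acid carrier, was 269 at 24 hours, 5210 on day 2 and 19800 on day 3. Adipoq, which encodes adiponectin, was 152, 1150 and 10700 in the same samples. Gpd1, which makes glycerol phosphate for triglyceride, was below 0 up to 24 hours and read 677 on day 2 and 11200 on day 3. Cidec, a lipid droplet protein, went from 99 at 24 hours to 2840 and 8150. Of the 14 adipocyte genes, 1 was called higher early, 11 in the middle stage and 14 late, and none lower. The shares over all probe sets tested were 0.198%, 1.53% and 5.82% higher and 0.158%, 1.21% and 5.08% lower. The early call was Scd1 (6.22-fold, adjusted p = 0.0091; 0.0735 without the 12-hour sample), also lost without the preconfluent sample. With 1 time point left out, the middle call of Lpl was lost in 9 settings and that of Fasn in 7. Adipoq, Cd36 and Dgat1 lost theirs in 2 each and Pparg in 1. The late calls of Retn and Fasn were lost in 2 and 1.

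**Figure D3:**
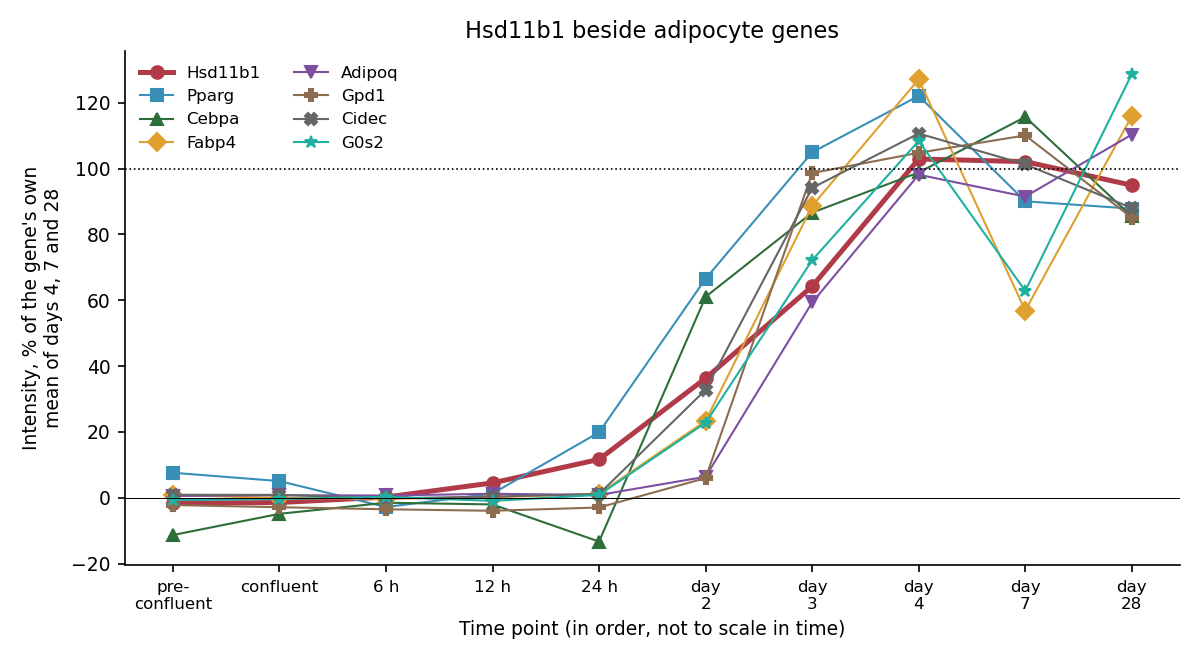
Intensity of Hsd11b1 and 7 adipocyte genes at each time point as a percentage of the gene's own mean over days 4, 7 and 28, each point being 1 sample. Hsd11b1 was at 11.6% and Pparg at 19.9% at 24 hours, and both Pparg and Cebpa were above Hsd11b1 on days 2 and 3.

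Among the transcription factors linked to Hsd11b1 in the literature, the early C/EBP factors and the late ones followed different courses. Of 8 listed factors with a named probe set, 6 were tested, and 2 (Cebpa and Pparg) were called higher both late and in the middle stage, where 1.53% of all probe sets tested were called higher and 1.21% lower. Cebpa was at least 10.9-fold higher late than before (3.45 ± 0.20, adjusted p = 7.36e-05) and at least 8.02-fold higher in the middle stage (adjusted p = 0.000496). Pparg was at least 9.76-fold higher late (3.29 ± 0.37, adjusted p = 0.000666) and at least 8.26-fold higher in the middle stage (adjusted p = 0.0041; 0.0524 without day 3). In the early stage none of the 6 was called, against 0.198% of all probe sets called higher and 0.158% lower; by unadjusted p under 0.05, 1 was higher and 1 lower. Over all probe sets tested, limma's unadjusted p was under 0.05 for 4.01% higher and 5.22% lower early, 7.14% and 8.61% in the middle stage, and 11.2% and 13.9% late.

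Cebpb, the C/EBP factor that starts the adipogenic cascade, was high before Hsd11b1 was measurable. It read 2750 and 2840 before induction, 9960 at 6 hours, 9240 at 12 hours and 8450 at 24 hours, then 9090, 4500, 6410, 4260 and 2970 from day 2 to day 28. Early minus before was 1.72 ± 0.36 and did not pass the test over all probe sets (adjusted p = 0.138). Cebpd, its early partner, read 716, 696, 1510, 1030, 1810, 1260, 1330, 1390, 365 and 367, and its early change was not called either (adjusted p = 0.678). Late minus before was 0.63 ± 0.36 for Cebpb (adjusted p = 0.328) and -0.31 ± 0.54 for Cebpd (adjusted p = 0.779), so neither held a called late difference while Hsd11b1 stayed near 12500.

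Ddit3, which encodes a C/EBP family member that binds and blocks other C/EBPs, was a listed factor with a distinct course, named here after its values were seen. It read 575 and 2540 before induction, then -729, -781, -571, -405 and -95 from 6 hours to day 3, and 3270, 8190 and 2570 on days 4, 7 and 28. The 5 samples from 6 hours to day 3, over which Hsd11b1 went from 25 to 8050, were the 5 in which Ddit3 was below the floor. Early and middle minus before were both -2.95 (SE 0.63 and 0.69) and were not called (adjusted p = 0.141 and 0.0685). Both were called with the floor at 0.5 times its value. A lower floor makes these changes larger by construction, since all 5 samples lie below it and both baseline samples above it.

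The receptor side gave little signal. Nr3c1, the glucocorticoid receptor, read between -26 and 115 in the 10 samples, below the floor of 156 in each, so no change of it could be measured with its probe set. Nr3c2, the mineralocorticoid receptor, H6pd and the liver X receptors Nr1h2 and Nr1h3 had no probe set with their name alone and were not analysed here. Of 20 measured genes for the receptor, its chaperones and cofactors, 17 were tested, none was called higher in any stage (2 late, 0 early and 0 in the middle stage by limma's unadjusted p under 0.05) and 1 was called lower late: Hdac2, a histone deacetylase, at 307 and 308 before and 158, 120 and 70 late, at least 2.15-fold lower (-1.10 ± 0.26, adjusted p = 0.0224). That call was lost with the floor at 2 times its value (adjusted p = 0.318), and when the preconfluent (0.09), the confluent (0.0759) or the day 7 sample (0.0556) was left out. The median late change of the 17 was -0.20, against -0.05 over all probe sets tested, of which 5.82% were called higher late and 5.08% lower. Bag1, a chaperone cofactor that binds the receptor, was read from array B and not called (0.52 ± 0.21, adjusted p = 0.172), while its dimmer probe set on array A was called higher late (1.40, adjusted p = 0.014). The main chaperone Hsp90aa1 ran from 1660 to 3480 with no called change (late -0.09 ± 0.36, adjusted p = 0.915).

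Hsd11b2, the enzyme of the opposite direction, lay between 25 and 220, around the floor of 156, in 5 of the 10 samples. It read 190 and 220 before induction, 623, 25 and 568 at 6, 12 and 24 hours, 136 and 181 on days 2 and 3, and 592, 840 and 685 late. The late readings overlapped with the early ones. Late minus before was 1.77 ± 0.53 and did not pass the test (adjusted p = 0.0682). The probe sets of both enzymes are on array B, and levels of different probe sets were not compared.

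Of the other genes of glucocorticoid and steroid metabolism, 10 of 17 measured stayed too dim to be tested, among them the steroid-making enzymes Cyp11a1 and Cyp17a1 and the corticosteroid-binding globulin gene Serpina6. Of the 7 tested, 2 were called higher late and none lower, against 5.82% and 5.08% of all probe sets tested. The median change of the 7 was 0.53. Cbr1, a carbonyl reductase that also acts on steroids, read 387, 370, 299, 350, 581, 745, 1230, 2980, 1730 and 2800 and was 6.43-fold higher late (2.69 ± 0.39, adjusted p = 0.00231). Hsd17b4, a peroxisomal enzyme of fatty acid oxidation, was at 564 and 617 before and 1020, 1460 and 1650 late, 2.29-fold higher (1.19 ± 0.23, adjusted p = 0.0138), a call lost without the preconfluent or the confluent sample (adjusted p = 0.0878 and 0.0559). None of the 7 was called in the early or the middle stage, where 0 and 2 had an unadjusted p under 0.05 in limma's test.

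Hsd11b1 belongs to the short-chain dehydrogenase family, in which 13 of 18 measured relatives were tested. Late, 5 were called higher and none lower, against 5.82% and 5.08% of all probe sets tested. These 5 were Cbr1 and Hsd17b4 with Cbr2, Decr1 and Qdpr, and the median late change of the 13 was 1.09. Cbr2, a carbonyl reductase known from lung and fat, rose at the time point at which Hsd11b1 left the floor: it read 1120, 870 and 1490 up to 6 hours, 3780 at 12 hours, 4020 at 24 hours, 5160, 5490 and 6000 on days 2 to 4, then 6620 and 5380. It was 6.06-fold higher late (2.60 ± 0.39, adjusted p = 0.00533) and 5.39-fold higher in the middle stage (adjusted p = 0.0276). The middle call was lost when the preconfluent (0.104), confluent (0.13), day 2 (0.115) or day 3 (0.176) sample was left out. Decr1, a dienoyl-CoA reductase of fatty acid oxidation, was 7.07-fold higher late (2.82 ± 0.43, adjusted p = 0.00276). Qdpr, which recycles the cofactor biopterin, was 3.00-fold higher (1.59 ± 0.34, adjusted p = 0.0131; 0.113 without the preconfluent sample).

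For NADPH, the cofactor that the reductase uses, 9 listed genes were measured and tested, with 1 called higher and 1 lower late. Taldo1, a pentose phosphate enzyme, read 437 and 328 before, 82 to 373 in the early stage, 2170 and 3630 on days 2 and 3 and 8250, 2180 and 1740 late. It was 8.32-fold higher late (3.06 ± 0.65, adjusted p = 0.0131), with an adjusted p of 0.0735 without the preconfluent and 0.0884 without the confluent sample. Nnt, the mitochondrial transhydrogenase, went from 2140 and 2670 to 921, 439 and 696 and was 3.65-fold lower late (-1.87 ± 0.31, adjusted p = 0.00802; 0.058 without the confluent sample). The median late change of the 9 was 1.23, and 6 were higher and 1 lower by unadjusted p, where 11.2% of all probe sets tested were higher and 13.9% lower. By calls, 5.82% of all were higher and 5.08% lower. These enzymes act in the cytosol or mitochondria, while Hsd11b1 draws on the NADPH pool of the endoplasmic reticulum.

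Of 25 measured genes known to be induced by glucocorticoid, 18 were tested. In limma's test none was called early or in the middle stage. By unadjusted p under 0.05, 8 were higher in each of the 3 stages, where 4.01% (early), 7.14% (middle) and 11.2% (late) of all probe sets tested were higher, and 1, 1 and 2 were lower. The median early change was 1.24, against 0 over all probe sets tested, and it was 0.98 in the middle and 0.76 in the late stage. Late, 1 was called higher and 1 lower, against 5.82% and 5.08% of all probe sets tested. The list was drawn up with results of these data known and its genes also respond to other signals, so its counts are a description.

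Fkbp5, Mt2 and Dusp1, named after their values were seen, peaked between 6 hours and day 2, when Hsd11b1 was between 25 and 4550. Fkbp5, a co-chaperone that restrains the receptor, read 1350 and 1410 before induction, 9460, 5700 and 7640 early, 10600 and 4240 in the middle stage, then 5890, 1960 and 1270. The metallothionein Mt2, read from a probe set shared by a gene family, was at 3720 and 4770, then 43500, 29300, 16100, 12500, 4860, 18300, 17000 and 4770. The phosphatase gene Dusp1 read 614, 293, 4730, 1830, 1830, 1250, 442, 864, 391 and 419. On day 28, when Hsd11b1 was at 11900, Mt2 and Dusp1 lay within the range of the baseline samples and Fkbp5 just below it. Early minus before was 2.43 ± 0.59 for Fkbp5 (adjusted p = 0.161), 2.70 ± 0.63 for Mt2 (adjusted p = 0.141) and 2.57 ± 0.62 for Dusp1 (adjusted p = 0.187), none of them called. Late minus before was 0.83 ± 0.59, 1.44 ± 0.63 and 0.30 ± 0.62, with adjusted p of 0.428, 0.183 and 0.818.

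Late calls in this list went to Orm1 and Anxa1. Orm1, an acute phase protein of liver and fat, read 114 and 72 before induction and 397, 502 and 904 late, at least 4.15-fold higher (2.05 ± 0.44, adjusted p = 0.0139). The call was lost without the preconfluent or the confluent sample (adjusted p = 0.0886 and 0.074) and with the floor at 2 times its value (0.0913). Anxa1, which encodes annexin A1, an anti-inflammatory protein, moved down from 7890 and 7430 to 2640, 3010 and 3640, 2.49-fold lower (-1.32 ± 0.33, adjusted p = 0.0392). Leaving out any 1 of 8 time points ended that call, with adjusted p up to 0.178 without the preconfluent sample. Lcn2, lipocalin 2, read 336 and 35 before, 818, 2950, 4420, 3920 and 3860 from 6 hours to day 3, 10700 on day 4, 896 on day 7 and 110 on day 28. Its late change of 2.32 ± 1.49 was not called (adjusted p = 0.385), and its 3 late samples spread from below the floor to near the top of the array, where those of Hsd11b1 were within 1.08-fold.

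**Figure D4:**
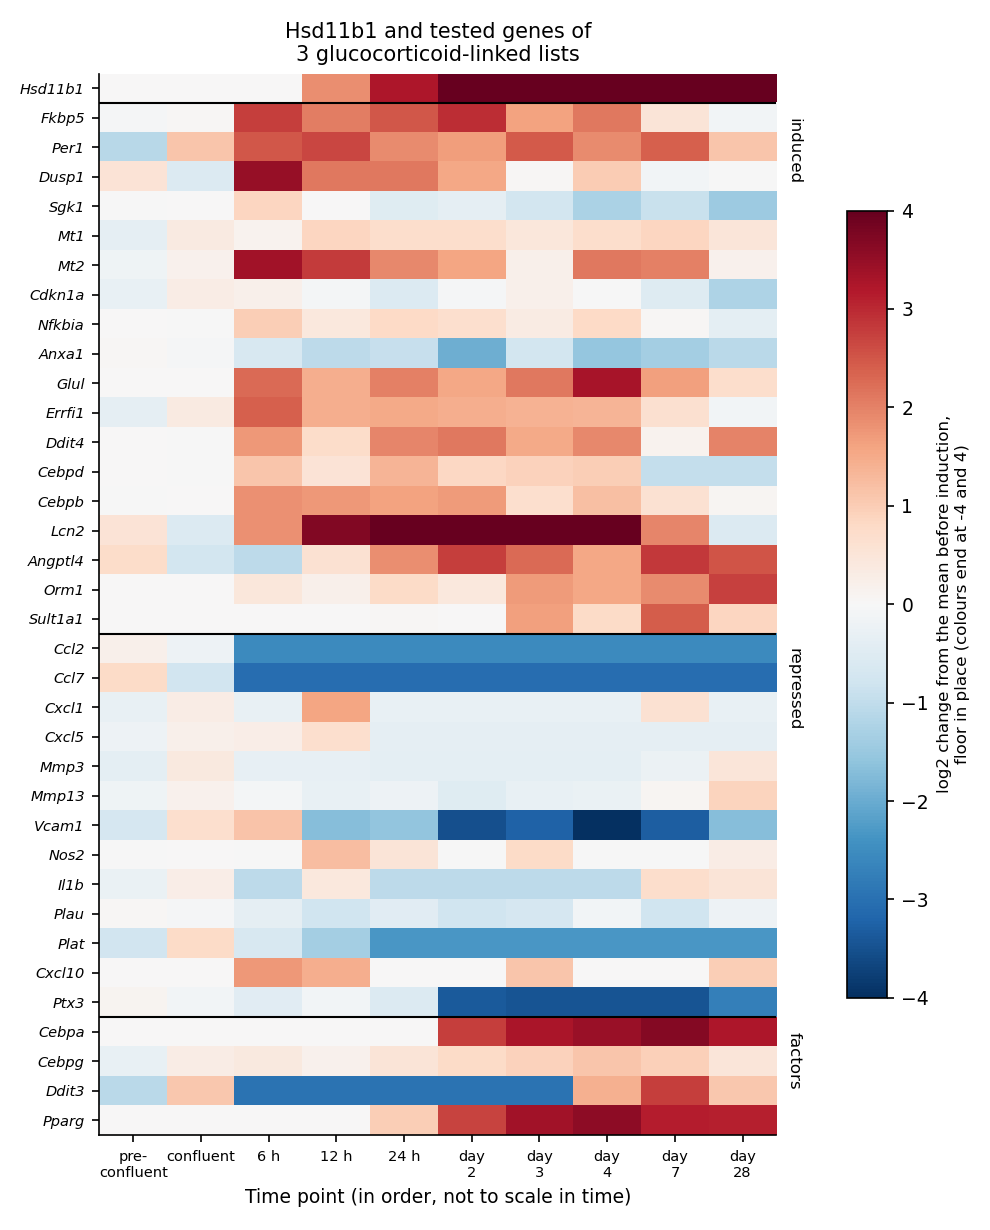
Log2 change of each sample from the mean of the 2 baseline samples, with the floor in place, for Hsd11b1 (top row) and the tested genes of 3 lists: genes known to be induced by glucocorticoid, genes known to be repressed by it, and transcription factors linked to Hsd11b1 (those already shown in the first list are not repeated). Colours end at -4 and 4; Hsd11b1 is at 0 up to 6 hours, while Fkbp5, Dusp1 and Mt2 are already raised and Ccl2 and Ccl7 already at the floor.

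Of 20 measured genes known to be repressed by glucocorticoid, 13 were tested. Called lower were 2 early, 3 in the middle stage and 4 late, against 0.158%, 1.21% and 5.08% of all probe sets tested. None was called higher (0 by limma's unadjusted p under 0.05 in each stage). The chemokine genes Ccl2 and Ccl7 were lower from the first sample after induction. Ccl2 read 911 and 687 before and was below 0 in all 8 later samples, at least 5.82-fold lower early (-2.54 ± 0.27, adjusted p = 0.00875). Ccl7 read 2200 and 751 before and between -19 and 89 afterwards, at least 8.24-fold lower early (-3.04 ± 0.37, adjusted p = 0.0178). Both early calls were lost without the 12-hour sample (adjusted p = 0.0735 and 0.0939). Ccl7 also lost its early call with the floor at 2 times its value (0.076), and its middle call without day 2 (0.0616) or day 3 (0.0862). Both genes were also called lower late, with adjusted p of 0.000474 and 0.00221. They had reached the floor at 6 hours, before Hsd11b1 left it.

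Ptx3 and Plat, the other 2 late calls of this list, fell later. Ptx3, a long pentraxin of the innate response, read 1850, 1560, 1230, 1580 and 1170 up to 24 hours and 166, 90, 53, 75 and 257 from day 2, at least 10.6-fold lower in the middle stage (adjusted p = 0.000849) and at least 8.99-fold lower late (adjusted p = 0.000385). Plat, the tissue plasminogen activator gene, read 407, 1170, 445 and 269 up to 12 hours and 105 or less afterwards, at least 5.07-fold lower late (-2.34 ± 0.51, adjusted p = 0.0148; 0.128 without the confluent sample and 0.0766 with the floor at 2 times its value). The median change of the 13 was -0.37 early, -0.75 in the middle stage and -0.35 late.

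The inducing mixture also raises cyclic AMP through isobutylmethylxanthine, and 5 of 9 measured genes of that response were tested. Called higher were 1 early, 1 in the middle stage and 2 late, against 0.198%, 1.53% and 5.82% of all probe sets tested. None was called lower. Nr4a1, an orphan nuclear receptor of the immediate early response, read 383 and 464 before induction, 5730, 2940 and 2590 early, 1740 and 1460 in the middle stage and 1660, 1680 and 1020 late. It was 8.35-fold higher early (3.06 ± 0.36, adjusted p = 0.0178), 3.78-fold higher in the middle stage (adjusted p = 0.0471) and 3.36-fold higher late (adjusted p = 0.0179). The early call was lost without the preconfluent (0.134), confluent (0.0549) or 12-hour (0.0865) sample. The late call was lost without the preconfluent sample (0.125) and 3 others, and the middle call without any of 7 samples. Rgs2, a regulator of G protein signals, read 270 and 442 before and 2720, 862 and 2800 late, 5.42-fold higher (2.44 ± 0.52, adjusted p = 0.0131; 0.123 without the preconfluent sample). The parts of glucocorticoid and of cyclic AMP in any change after induction cannot be told apart, since the mixture holds an agent for each.

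Likeness of time course was measured as Pearson's r of log2 values over the 10 time points, across 4822 named probe sets of 4114 genes. All of these share the same RNA samples and many share the overall course of differentiation, so r is a description: 100 probe sets (2.07%) had r of at least 0.9, 24 of at least 0.95, and the median was -0.12. The 10 most like Hsd11b1 were Uqcrfs1 (r = 0.99), Echs1 (0.98), Pcx (0.98), Bcap31 (0.98), Pam16 (0.97), Uqcr11 (0.97), Coq9 (0.97), Pparg (0.97), Hp (0.97) and Atp5o (0.97). Uqcrfs1 and Uqcr11 encode subunits of respiratory complex III, Atp5o a subunit of the ATP synthase, Coq9 a ubiquinone synthesis factor, Pam16 a part of the mitochondrial import motor, Echs1 an enzyme of fatty acid oxidation and Pcx pyruvate carboxylase. Bcap31 encodes a protein of the endoplasmic reticulum, the compartment of the Hsd11b1 enzyme.

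Uqcrfs1 had the closest course, with 171, 110 and -174 up to 6 hours, 371 at 12 hours, 763 at 24 hours, 3540, 4760 and 6010 on days 2 to 4, and 5120 and 6480 on days 7 and 28. Pcx, which feeds oxaloacetate into fatty acid and glycerol synthesis, read -42, 71, 138, 427, 567, 1560, 1570, 3060, 1620 and 1380. Both, like Hsd11b1, were first well above the floor at 12 hours, though Uqcrfs1 was slightly above it in preconfluent cells and Pcx at 6 hours. Bcap31 had the same shape over a far smaller range, from 2390 to 5010. With Spearman's rho on the deposited values, 2 of the 10 stayed among the 10 most alike, and with the floor at 2 times its value 4 did, so the makeup of the top 10 depended on the measure.

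The 5 most opposite were Myh9 (r = -0.99), Itgb1, Fbln1, Ski and Efnb2 (each -0.98). Myh9, the nonmuscle myosin heavy chain of stress fibres, read 8660, 9260, 9440, 5870, 4610, 3590, 3610, 2400, 2730 and 3100, so it first fell in the 12-hour sample in which Hsd11b1 first rose. Itgb1, the integrin beta 1 subunit, held 5720 to 6480 up to 12 hours and 2890 to 3380 from day 2. Fbln1, a matrix fibulin, went from 1280 in confluent cells to below the floor on days 4, 7 and 28. Ski is a repressor of TGF-beta signalling and Efnb2 an ephrin ligand, and both were at or near the floor late.

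**Figure D5:**
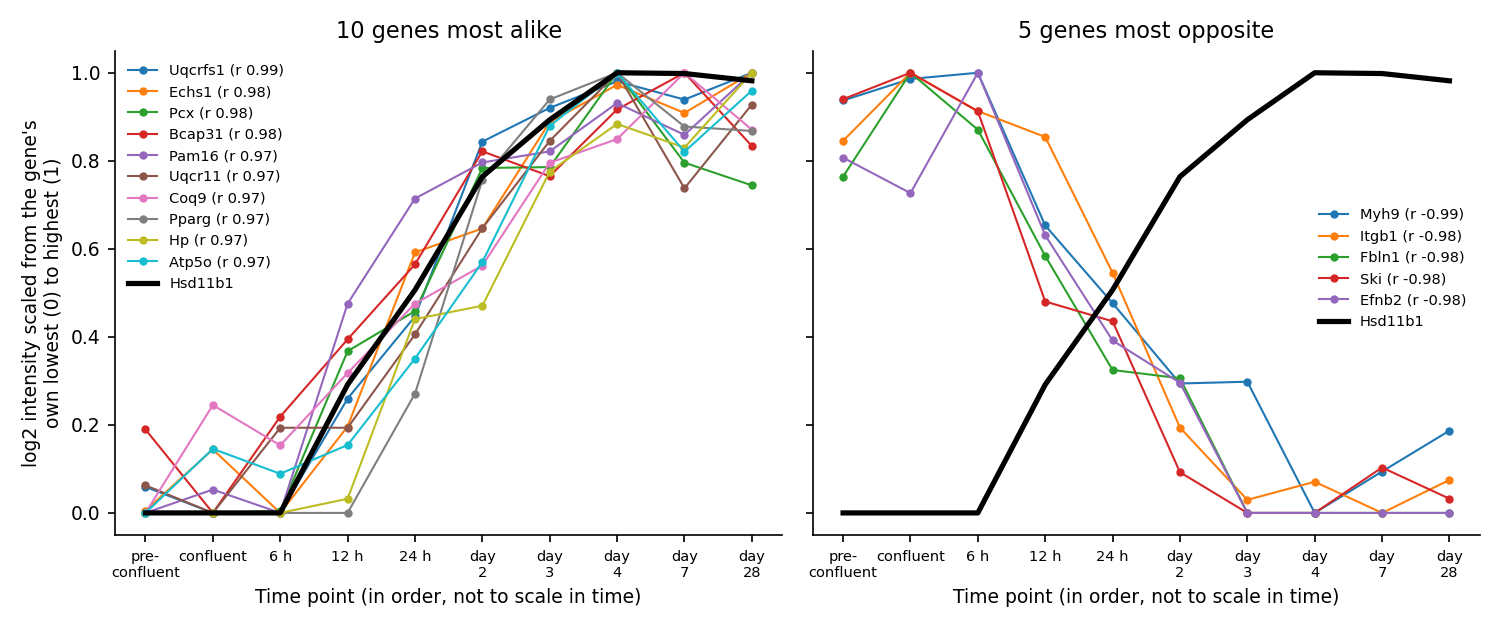
Log2 intensity, with the floor in place and scaled from each gene's own lowest to its highest value, at each time point for the 10 genes with the highest Pearson correlation with Hsd11b1 (left) and the 5 with the lowest (right); the thick line is Hsd11b1 and each point is 1 sample. Legends give r over the 10 time points, from 0.97 to 0.99 on the left and from -0.99 to -0.98 on the right.

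Of the adipocyte genes, Pparg (rank 8 of 4822 by r), Lipe (rank 17, r = 0.96) and Fabp4 (rank 32, r = 0.95) were most like Hsd11b1, and Slc2a4 (r = 0.80) least. Of glucocorticoid-induced genes, Angptl4 (r = 0.87) and Orm1 (r = 0.85) were closest. Fkbp5 (r = 0.05), Mt2 (r = -0.05) and Dusp1 (r = -0.34) had little or negative likeness. The tested genes of that list ran from r = -0.88 (Sgk1) and -0.74 (Anxa1) up to Mt1 (0.63), Sult1a1 (0.71) and the 2 closest. Cebpa was at r = 0.93, Cebpb at -0.0044 and Cebpd at -0.21.

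The gene next to Hsd11b1 on chromosome 1 in RefSeq's order, G0s2, also rose. G0s2 encodes an inhibitor of adipose triglyceride lipase. It read -44, -23, 17, -58 and 52 up to 24 hours and 1370, 4340, 6520, 3780 and 7740 from day 2, at least 36.9-fold higher late (5.21 ± 0.46, adjusted p = 0.000598). It was thus below the floor at 12 and 24 hours, where Hsd11b1 read 565 and 1460, and left the floor on day 2. Of the 10 nearest genes, 5 on either side, the 3 others with a named probe set (Lamb3, Plxna2 and Cd34) had late changes of 0.45, -0.10 and 0.26 and were not called (adjusted p = 0.622, 0.922 and 0.379). This set of neighbours was chosen after the values of these data were seen.

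Markers of other cells that make Hsd11b1, such as hepatocytes, and of cells that could remain in the culture were read beside the rise. Of 6 hepatocyte markers 5 were tested and none was called late in limma's test (0 by unadjusted p under 0.05), and their summed level ran from 854 to 1841 before and from 415 to 1600 late. Of 11 macrophage markers 7 were tested, with summed levels of 5487 to 5926 before and 3171 to 4826 late, none higher and 2 lower late (Cd14 and C1qc), and the defining markers Adgre1, Csf1r and Fcgr1 were below the floor in every sample. The pan-leukocyte gene Ptprc read 1000 to 1720 and Cd14 1000 to 2470 over the 10 samples, and the lysozyme gene Lyz2 140 to 1650, so part of this list was above the floor throughout. Of 6 endothelial markers, with summed levels (values below 0 included) of 1340 to 1401 before and 317 to 1070 late, Pecam1 and Cdh5 were below the floor in every sample, while the VEGF receptor gene Kdr was above it in each, at 538 to 1010 (late not called, adjusted p = 0.167). Of the 3 tested, 1 was called higher late (Icam2, 1.78-fold, adjusted p = 0.0333). Of 9 muscle markers, with summed levels of 4517 to 4629 before and 4523 to 8272 late, 1 of 5 tested was called higher late (Des, at least 2.36-fold, adjusted p = 0.0354). Ckm read 1830 to 3670 and Myog 323 to 906, both above the floor throughout (late not called, adjusted p = 0.571 and 0.753). The myoglobin gene Mb read 398 to 651 in the first 9 samples and 4790 on day 28 (late not called, adjusted p = 0.369), while its other probe set was below 0 in all 10. The part of any of these cells in the level of Hsd11b1 was not tested. Over all probe sets tested, 5.82% were called higher late and 5.08% lower. The calls of Cd14, C1qc, Icam2 and Des were each lost with the preconfluent sample left out (adjusted p from 0.103 to 0.141).

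All 10 fibroblast and preadipocyte markers were tested, and 4 were called lower late, none higher, against 5.08% and 5.82% of all probe sets tested. The 4 were Dlk1 (4.19-fold, adjusted p = 0.0366), Thy1 (5.47-fold, 0.0405), Pdgfrb (4.43-fold, 0.0461) and S100a4 (6.28-fold, 0.00916). The summed level of all 10 markers ran from 84582 to 102265 before and from 35338 to 66835 late. Thy1 and Pdgfrb were lost as calls without any 1 of 9 time points, Dlk1 without any of 7 and S100a4 without the preconfluent sample (adjusted p = 0.167, 0.181, 0.111 and 0.0785 in that last setting). Dlk1, a preadipocyte inhibitor of adipogenesis, read 1700 on day 4, 685 on day 7 and 3140 on day 28, and Thy1, a fibroblast surface protein, read 1620, 674 and 4240. Both were thus lowest on day 7 and higher again on day 28, while Hsd11b1 read 12900, 12800 and 11900 in these samples. A change in the share of converted cells was not tested as a part of the rise of Hsd11b1.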

How the data were processed

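The authors deposited a linear intensity per probe set and array, for which the labels' protocols name only the maker's technical manual. Software, version and genome build are not given in the sources used here. Names came from the platform annotation, in which 7542 probe sets had 1 symbol, 224 had several and 5303 none, and 110 controls were left out. Values under the floor, the 10th percentile of an array type with its sign turned, were set to it before log2. Testing required 2 or more of the 10 samples above 182 for array A, or above 156 for array B. Stage means were fitted per array type with limma 3.58.1 in R 4.3.3 on 6 residual degrees of freedom, with Benjamini-Hochberg adjustment over all 7582 probe sets. The fit was tested on simulated data with independent samples around baseline levels set above the floor. That test does not cover baselines at the floor or trends within a stage. Late was called higher for 441 and lower for 385 probe sets, early for 15 and 12, and middle for 116 and 92.

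The members and the 14 gene lists were chosen with earlier results of these data known. Named are Hsd11b1, list members called in any comparison (up to 8 per list) with 10 preset regulators, the genes most and least alike, and adipocyte genes; others are marked as chosen after their values were seen. A gene was read from its brightest probe set. Tested probe sets of a gene differed in call for Bag1 and Col1a2 late and Cd36 in the middle stage. "At least" marks a fold whose dimmer stage had a sample at the floor. Alternatives were the floor, quantile normalization, no filter, the confluent sample as the only baseline, and each time point left out.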

Additional observations from a re-analysis of the deposited data

How the results depend on the processing

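The late minus before change of Hsd11b1 was 5.33 with the floor at 2 times its value and 7.33 with it at 0.5 times, because both baseline samples lie at the floor, so only a lower bound of the fold can be had. It was 6.33 with quantile normalization. Leaving out 1 late sample gave 6.31 to 6.36. Leaving out any other time point could not change it, since both baseline samples were set to the floor and each stage has its own mean. Its midpoint, passed at 24 hours on the log2 scale (time point 5 of 10), was passed at time point 7 on the linear scale, 4 by the first value above the floor and 6 with the floor at 2 times its value. The 10 genes most alike shared 2 members with those by Spearman's rho on the deposited values and 4 with those at the higher floor.

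With confluent cells alone as the baseline, 197 probe sets were called higher and 120 lower late, 1 higher early, and 41 higher and 27 lower in the middle stage. With the floor at 2 times its value, 21 were lower early. Leaving out 1 time point gave 197 to 407 higher and 120 to 359 lower late, 0 to 25 higher and 0 to 21 lower early, and 22 to 113 higher and 13 to 95 lower in the middle stage. The fewest late calls came without the preconfluent sample, which is the same fit as confluent cells alone as the baseline. The fewest early calls came without the 12-hour sample and the fewest middle calls without day 3. Fewer samples leave fewer degrees of freedom, and no other cause was tested. Of 60 calls of named genes, 26 were kept when any 1 time point was left out, and none changed sign in any setting tried. Quantile normalization kept all 60. No paired analysis was possible because each time point is 1 sample on each array type.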

Other observations

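Other genes of the lists that did not pass the test had courses of their own. Tkt, an enzyme of the non-oxidative pentose phosphate pathway, read 1770 and 803 before induction, 119 and 76 at 6 and 12 hours, 1290 at 24 hours, 1540 and 2920 on days 2 and 3, and 5790, 6950 and 4950 late (late 2.29 ± 0.83, adjusted p = 0.107). Its lowest 2 samples were those in which Hsd11b1 read 25 and 565. Me1, the cytosolic malic enzyme, was at 379 and 299 before, between 120 and 179 in the early stage and at 977, 718 and 704 late (late 1.23 ± 0.38, adjusted p = 0.0648). Vcam1, an adhesion molecule of the glucocorticoid-repressed list, read 2030, 5120 and 7150 up to 6 hours, 982 at 12 hours, 1080 at 24 hours, 283 and 345 on days 2 and 3, and 197, 325 and 982 late (late -3.02 ± 0.95, adjusted p = 0.0803). Glul, which encodes glutamine synthetase, was below the floor in both baseline samples and above it in all 8 later ones, from 255 on day 28 to 1540 on day 4 (late 1.89 ± 0.63, adjusted p = 0.1). These genes were named after their values were seen, and the adjusted p-values are limma's.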
